A study of Mus musculus with 6 samples.

Results

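Collagen genes were followed in N18-Fms cells, a mouse prostate cancer subclone that carries the receptor for colony-stimulating factor 1 (CSF-1), before and after stimulation with CSF-1. The members were every gene whose array name is Col, a number, the letter a and a number, which gave 41 of the 36163 named genes on the array, measured by 63 probes. The probe with the highest mean level stood for a gene that had several. A usable probe existed for 40 of them. Of the 41 genes, 11 encode fibrillar collagens, 6 encode the type IV chains of basement membranes and 24 encode other collagens. The brightest probes were well above background on all 6 arrays for 22 genes, and 27 genes met the condition for testing, which asked for 1 group or more with both of its arrays well above background. They comprised 8 of the 11 fibrillar genes, 4 of the 6 type IV genes and 15 of the 24 others.

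Expression was measured on 6 single-color Agilent arrays, 2 for each of 3 groups. Control cells were left unstimulated, and the labels give them the treatment vehicule. The 24H CSF1 and 48H CSF1 groups were exposed to recombinant mouse CSF-1 at 100 ng/ml for 24 h or 48 h. In the labels the line is called N18-CFMS. All groups shared the same background: N18 is 1 luciferase-expressing clone of the C2H line, itself a clonal line from a tumor of the TRAMP mouse model of prostate adenocarcinoma, and a retrovirus had added murine c-fms, the CSF-1 receptor gene. The transduced cells were sorted for the receptor and grown in serum-containing medium with dihydrotestosterone. Control cells therefore carried the receptor too, and a difference from Control is one between cells of 1 clone with and without added CSF-1. The labels give no time for Control, so an effect of time in culture cannot be told apart from one of CSF-1. RNA came from 2 independent experiments, but the labels do not say that replicate number marks the experiment, so the p-values measure the spread between these arrays.

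Collagens are secreted proteins in which chains wind into a triple helix. Fibrillar collagens (types I, II, III, V, XI, XXIV and XXVII) form the fibers of connective tissue, and type V chains nucleate and limit the width of type I fibers. Type IV collagen forms the sheet-like network of the basement membrane on which epithelial cells, including those of prostate glands, rest. The other members include fibril-associated collagens, which decorate fibers, type VI beaded filaments, type VII anchoring fibrils, the short-chain networks of types VIII and X, the multiplexins (types XV and XVIII) of basement membrane zones, and transmembrane collagens such as type XVII, a component of the hemidesmosome that fixes basal epithelial cells to the basement membrane.

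All levels are given as log2 of the spot signal minus log2 of the array's 75th percentile, so that 0 is the 75th percentile of that array and 1 unit is a doubling. Levels of different genes are not set against each other, since probes differ in brightness. Between 58.7% and 72.0% of the 59305 non-control spots of an array were well above background, and 0 were saturated. The 24H CSF1 replicate 1 array was on a slide of its own, scanned separately, while the other 5 shared 1 slide, and slide could not be tested as a batch. Replicate arrays correlated at 0.993 to 0.994 (Pearson's r across 24648 genes, which are not independent). The number of arrays limits the precision. An exact permutation test of 2 arrays against 2 cannot give a 2-sided p below 0.333, so tests rested on limma, which was fitted across all 24648 genes tested.

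The defining markers of prostate epithelium were weak in these cells. The keratin gene Krt8 was well above background on all 6 arrays, Krt19 on 5 and Krt18 on 3, whereas the epithelial adhesion gene Epcam was so on 1 array and Cdh1, which encodes E-cadherin, on none. Krt8 stood at -3.04 and -2.37 in Control, at -1.91 and -2.03 at 24 h and at -0.88 and -0.58 at 48 h, and was called higher at 48 h (log2 fold change 1.98, SE 0.25, adjusted p = 0.0106 in limma). The bulk RNA cannot tell fewer cells of a type from less RNA per cell.

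Upstream sequence was read for the genes on which the results turn, because the genes that fell and the genes that rose could be set beside each other. The RefSeq promoter table (build GRCm38.p6) held 33 of the 41 genes, with 36 start sites. It held no entry for the fallen Col1a1, Col5a2 and Col12a1. Shown are the fallen Col1a2, Col3a1 and Col5a1 and the risen Col17a1 and Col18a1, all called at both times. Col5a3, called higher at 48 h only, had an entry but is not shown. The 250 bases before each annotated start are shown 5′ to 3′ on the strand of the gene, in lower case, with matches on either strand in capitals. The motifs searched were the CCAAT box, spelled as its name, the TATA box, spelled TATAAA, the AP-1 site, spelled TGANTCA, and the STAT-type GAS site, spelled TTCNNNGAA.
Col1a2, chr6:4505368-4505617, plus strand: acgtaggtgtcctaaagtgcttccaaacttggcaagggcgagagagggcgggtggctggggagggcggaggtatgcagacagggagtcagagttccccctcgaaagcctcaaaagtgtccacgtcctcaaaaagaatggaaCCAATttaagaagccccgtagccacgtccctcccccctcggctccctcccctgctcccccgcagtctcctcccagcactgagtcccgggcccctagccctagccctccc
Col3a1, chr1:45311288-45311537, plus strand: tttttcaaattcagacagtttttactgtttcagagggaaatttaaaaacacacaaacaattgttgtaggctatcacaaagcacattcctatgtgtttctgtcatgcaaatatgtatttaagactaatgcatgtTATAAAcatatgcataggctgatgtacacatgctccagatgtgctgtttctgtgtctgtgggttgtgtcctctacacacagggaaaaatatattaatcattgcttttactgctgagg
Col5a1, chr2:27886175-27886424, plus strand: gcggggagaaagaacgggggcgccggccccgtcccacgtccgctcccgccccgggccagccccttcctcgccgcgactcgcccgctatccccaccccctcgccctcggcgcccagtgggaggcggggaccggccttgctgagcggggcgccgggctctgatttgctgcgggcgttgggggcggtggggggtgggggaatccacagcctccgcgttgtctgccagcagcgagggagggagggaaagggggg
Col17a1, chr19:47692043-47692292, minus strand: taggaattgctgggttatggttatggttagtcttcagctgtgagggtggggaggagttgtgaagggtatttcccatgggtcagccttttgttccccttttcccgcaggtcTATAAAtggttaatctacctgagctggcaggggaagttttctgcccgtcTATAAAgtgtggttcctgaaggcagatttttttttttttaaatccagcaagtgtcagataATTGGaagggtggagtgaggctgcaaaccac
Col18a1 first start, chr10:77113706-77113955, minus strand: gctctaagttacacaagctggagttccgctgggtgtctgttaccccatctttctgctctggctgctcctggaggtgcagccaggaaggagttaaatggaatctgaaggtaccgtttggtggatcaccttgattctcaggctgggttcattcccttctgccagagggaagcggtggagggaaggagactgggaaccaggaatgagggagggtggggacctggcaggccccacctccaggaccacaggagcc
Col18a1 second start, chr10:77166531-77166780, minus strand: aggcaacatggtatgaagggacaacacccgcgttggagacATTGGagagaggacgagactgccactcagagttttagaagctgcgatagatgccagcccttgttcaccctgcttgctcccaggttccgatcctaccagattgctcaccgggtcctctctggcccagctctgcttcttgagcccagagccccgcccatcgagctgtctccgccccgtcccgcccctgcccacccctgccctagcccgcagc

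The window of Col1a2 held a CCAAT match at position -109 from the start, and that of Col3a1 a TATAAA match at position -117. Col17a1 held TATAAA at -140 and at -91 and a CCAAT match on the opposite strand at -31. One start of Col18a1 held CCAAT on the opposite strand at -210. The other start of Col18a1 and the start of Col5a1, whose window was 76.4% G and C, held no match. These letters are common: CCAAT was in 33.8% of all 32851 upstream windows and in 13 of the 36 collagen windows, TATAAA in 12.4% and 5, TGANTCA in 6.75% and 1 (Col6a1), and TTCNNNGAA in 7.02% and 1 (Col28a1). None of the 4 motifs was in all 3 windows of the fallen genes shown or in all 3 windows of the risen genes shown. A window of Col5a3, not shown, held a CCAAT match.

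Several collagen genes lie close together in the genome, at the probe positions of build mm9 given in the files. Probes of 10 pairs of collagen genes, involving 17 genes, were less than 1 Mb apart. The closest were Col3a1 (chr1:45405589-45405648) and Col5a2 (chr1:45431204-45431263), 25.6 kb apart, which both fell. Col18a1 (chr10:76514926-76514985), which rose, was 343 kb from Col6a1 and 456 kb from Col6a2, neither of which was called. The type IV genes Col4a1 and Col4a2 lie head to head on chromosome 8, with annotated starts 21 bases apart. Their full RefSeq promoter windows, which unlike the windows shown above run past the start, overlapped by 78 bases on opposite strands.

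Which collagen genes differ after CSF-1 was addressed by comparing each time with Control. At 24 h, 7 of the 27 genes tested were called at a Benjamini-Hochberg adjusted p under 0.05 in limma. The transmembrane collagen gene Col17a1 and the multiplexin gene Col18a1 were higher, and the fibrillar genes Col1a1, Col1a2, Col3a1, Col5a1 and Col5a2 were lower. Of all genes tested, 8.02% were called higher and 5.99% lower. At 48 h the same 7 genes were called in the same directions, Col5a3 was called higher as well, and the fibril-associated collagen gene Col12a1 was called lower, 9 genes in all, beside 6.58% of all genes called higher and 7.38% lower. Both comparisons use the same Control arrays.

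The number of collagen genes called lower became smaller when single arrays of the compared groups were left out. So did the number called lower over all genes tested, in these fits where 1 group held 1 array. Whether collagens lost more of their calls than other genes was not tested. The median log2 fold change of the fibrillar genes ran from -1.19 to -0.91 at 24 h and from -1.09 to -0.75 at 48 h. In these fits the remaining array of the group was assumed to vary like the other groups. Median centring of the arrays, which moves the median difference of all genes from 0.04 to -0.25 at 24 h and from -0.04 to -0.14 at 48 h, gave 2 higher and 9 lower calls at 24 h, the 4 added ones being Col11a1, Col16a1, Col4a1 and Col6a1. No called collagen gene changed direction under any setting tried. Col18a1 was called at both times whichever single array was left out. So was Col17a1, but its Control values were not well above background, and it was not tested where all 6 arrays had to be.

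The study's own threshold was an unadjusted p under 0.05 and a 2-fold change. Applied to the limma fit, it gave 2 collagen genes higher and 4 lower at 24 h, and 2 higher and 3 lower at 48 h. At each time 1.83% of all genes tested were lower by that rule, while 5.86% at 24 h and 4.66% at 48 h were higher. The higher genes were Col17a1 and Col18a1 at both times. The lower genes were Col11a1, Col1a2, Col3a1 and Col5a1 at 24 h and Col12a1, Col1a1 and Col1a2 at 48 h. With the t-test of the study's methods at that threshold 3 were lower at 24 h, and Col11a1 was not among them.

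**Figure D1:**
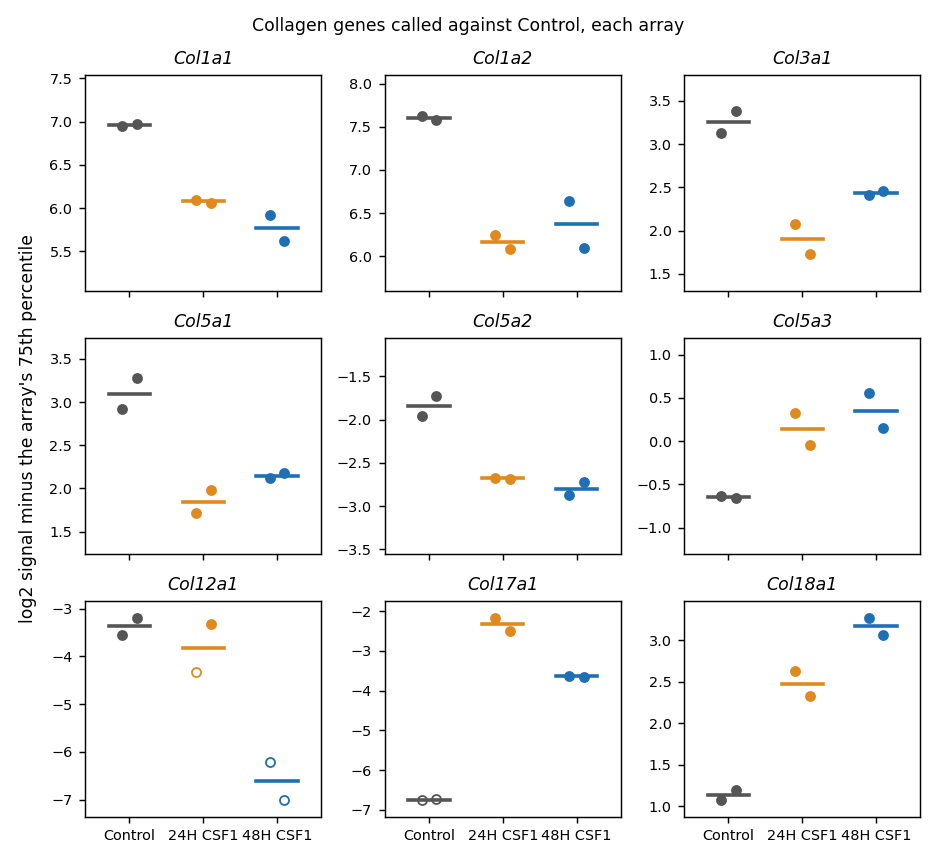
Level on each array of the 9 collagen genes called against Control at 24 h or 48 h (vertical axis, log2 signal minus the array's 75th percentile, 1 panel per gene with its own range; horizontal axis, group). Each circle is 1 array, open where the spot was not well above background, and bars are group means. The stimulated arrays of Col1a1, Col1a2, Col3a1, Col5a1 and Col5a2 all lie below both Control arrays, and those of Col5a3, Col17a1 and Col18a1 all lie above them.

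The fibrillar class held most of the lower calls. Of 8 fibrillar genes tested, 5 fell at each time, beside 5.99% of all genes called lower at 24 h and 7.38% at 48 h. Col5a3 rose at 48 h, beside 6.58% of all genes called higher. The median log2 fold change of the 8 was -1.07 at 24 h and -0.93 at 48 h, against 0.04 and -0.04 over all genes tested. Under the scaling and filter alternatives the fibrillar median ran from -1.35 with median centring to -0.84 without the filter on dim probes at 24 h, and without Control replicate 2 it was -0.75 at 48 h. The difference between classes was not tested.

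Type I collagen, the main fiber-forming collagen, is built from the products of Col1a1 and Col1a2. Col1a1 stood at 6.95 and 6.97 in Control, at 6.09 and 6.06 at 24 h and at 5.92 and 5.62 at 48 h. The 2 Control arrays were the highest of the 6, and the groups did not overlap. Col1a1 was 1.84-fold lower at 24 h (log2 fold change -0.88, SE 0.14, adjusted p = 0.0178) and 2.28-fold lower at 48 h (-1.19, SE 0.14, adjusted p = 0.00859). Its partner Col1a2 stood at 7.63 and 7.58 in Control, at 6.24 and 6.08 at 24 h and at 6.64 and 6.10 at 48 h. All 4 stimulated arrays lay below both Control arrays, and the arrays of the 2 times overlapped. The log2 fold change of Col1a2 was -1.44 at 24 h (SE 0.20, adjusted p = 0.0133) and -1.23 at 48 h (adjusted p = 0.0208). The 24 h calls of Col1a1 and Col1a2 were lost without any 1 of the 4 arrays compared (adjusted p up to 0.0883 and 0.0726). The 48 h call of Col1a1 was lost without either Control array (adjusted p = 0.0546 and 0.0550), and that of Col1a2 without either Control array or 48H CSF1 replicate 2 (adjusted p up to 0.103).

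Type III collagen, the product of Col3a1 alone, occurs in fibers together with type I. Col3a1 stood at 3.13 and 3.38 in Control, at 2.08 and 1.73 at 24 h and at 2.41 and 2.46 at 48 h. The 3 groups did not overlap, and the 24 h arrays were the lowest. It was 2.55-fold lower at 24 h (log2 fold change -1.35, SE 0.17, adjusted p = 0.00983) and 1.76-fold lower at 48 h (-0.82, SE 0.17, adjusted p = 0.0344). The 48 h call was lost with quantile normalization (adjusted p = 0.0531) and without any 1 of the 4 Control and 48H CSF1 arrays (adjusted p up to 0.134), and the 24 h call without Control replicate 2 (adjusted p = 0.0565).

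The type V genes did not share a direction. Col5a1 and Col5a2 encode the chains of its common form, and Col5a3 a chain found in fewer tissues. Col5a1 stood at 2.92 and 3.27 in Control, at 1.72 and 1.98 at 24 h and at 2.12 and 2.18 at 48 h, with no overlap between groups. Its log2 fold change was -1.25 at 24 h (SE 0.17, adjusted p = 0.0119) and -0.95 at 48 h (adjusted p = 0.0250). The 24 h call of Col5a1 was lost without Control replicate 2 (adjusted p = 0.0559) or 24H CSF1 replicate 1 (0.0603), and the 48 h call without any 1 of the 4 arrays compared (adjusted p up to 0.101). Col5a2 stood at -1.96 and -1.72 in Control, at -2.67 and -2.68 at 24 h and at -2.88 and -2.72 at 48 h, so all 4 stimulated arrays were lower. The log2 fold change of Col5a2 was -0.84 at 24 h (SE 0.13, adjusted p = 0.0188) and -0.96 at 48 h (adjusted p = 0.0141). Both calls of Col5a2 were lost without Control replicate 2 or either stimulated array compared (adjusted p up to 0.0866 at 24 h and 0.0702 at 48 h). Col5a3 went the other way. It stood at -0.63 and -0.66 in Control, at 0.33 and -0.05 at 24 h and at 0.56 and 0.15 at 48 h. All stimulated arrays of Col5a3 were above both Control arrays, and those of the 2 times overlapped. Col5a3 rose at 48 h (log2 fold change 0.998, SE 0.20, adjusted p = 0.0322), and at 24 h its difference was 0.79 (95% confidence interval 0.29 to 1.28, adjusted p = 0.0565). The 48 h call of Col5a3 was lost without any 1 of the 4 arrays compared, with an adjusted p of at most 0.125.

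Type XI chains, which nucleate fibers in cartilage and other tissues, are encoded by Col11a1 and Col11a2. Col11a1 stood at 0.71 and 1.10 in Control, at -1.02 and -0.03 at 24 h and at -0.02 and -0.01 at 48 h. The stimulated arrays lay below both Control arrays, and the 24H CSF1 replicate 1 array was the lowest. The difference of Col11a1 at 24 h was -1.43 (SE 0.34). In limma it passed the study's threshold but not the adjusted one (adjusted p = 0.0504), and with the methods' t-test it did not pass the study's threshold. Without 24H CSF1 replicate 1 the difference was -0.93. At 48 h it was -0.92 (adjusted p = 0.140). Col11a2 differed by 0.41 at 24 h (95% confidence interval -0.12 to 0.94) and by -0.03 at 48 h (-0.56 to 0.50). The remaining fibrillar genes, Col2a1, Col24a1 and Col27a1, were not tested: Col2a1 and Col24a1 were not well above background on any array, and Col27a1 only on 1.

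**Figure D2:**
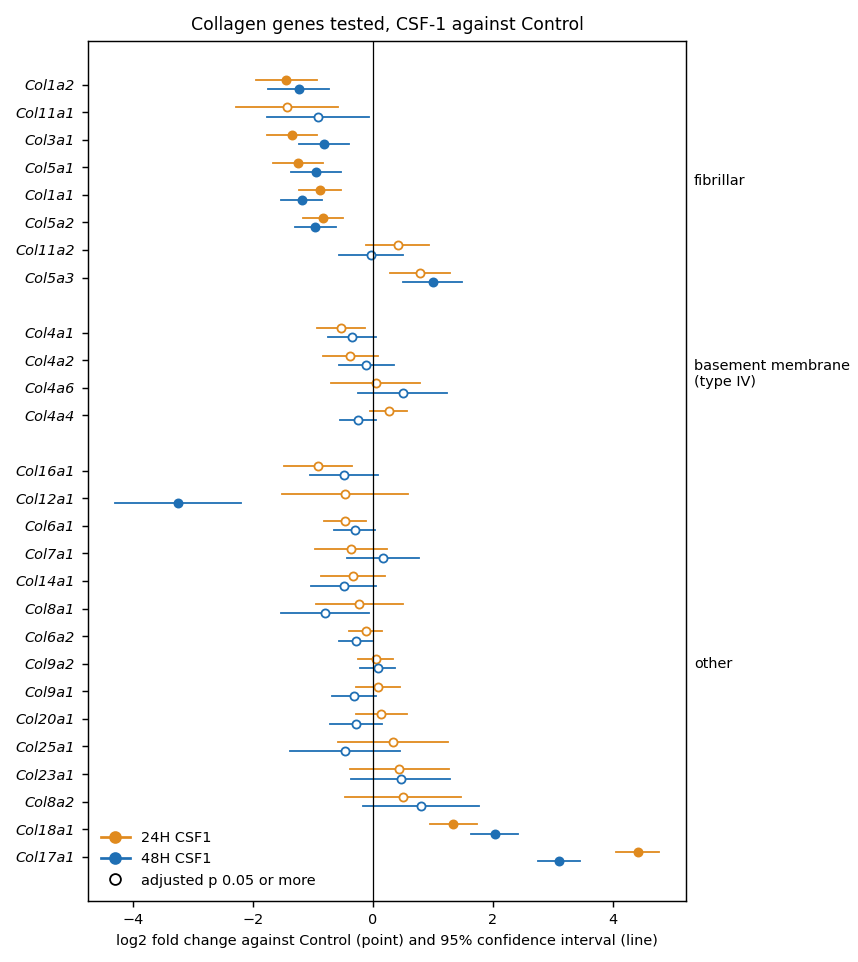
Log2 fold change against Control (horizontal axis) with its 95% confidence interval from limma for the 27 collagen genes tested (vertical axis, grouped as fibrillar, type IV and other), at 24 h in orange and 48 h in blue, 2 arrays a group; filled circles have an adjusted p under 0.05. Fibrillar genes lie mostly left of 0, from -1.44 to 0.79 at 24 h, type IV genes lie between -0.52 and 0.50, and Col17a1 and Col18a1 lie right of 0 at both times.

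No type IV gene was called. Of the 4 tested, limma called 0 at either time after adjustment, and 1 (Col4a1 at 24 h) at an unadjusted p under 0.05, beside 31.3% of all genes tested at 24 h and 30.9% at 48 h. The medians of the 4 log2 fold changes were -0.16 at 24 h and -0.18 at 48 h. The median at 24 h was -0.45 with median centring and 0.05 without the filter on dim probes.

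Col4a1 and Col4a2 encode the chains of the network common to all basement membranes. Col4a1 stood at 2.61 and 3.01 in Control, at 2.26 and 2.32 at 24 h and at 2.45 and 2.49 at 48 h. Its log2 fold change was -0.52 at 24 h (95% confidence interval -0.93 to -0.12, adjusted p = 0.0903) and -0.34 at 48 h (-0.75 to 0.06). Col4a1 was called lower at 24 h with median centring, with normexp at the 75th percentile and with an intensity trend. Its head-to-head neighbor Col4a2 stood at 2.64 and 3.14 in Control, at 2.54 and 2.49 at 24 h and at 2.76 and 2.81 at 48 h. Col4a2 differed by -0.38 at 24 h (-0.83 to 0.08) and by -0.11 at 48 h (-0.56 to 0.35), where the 48 h arrays lay between the Control arrays. For both genes the 2 Control arrays were farther apart than the arrays of either stimulated group.

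Col4a4 and Col4a6 encode chains of the networks of specialized basement membranes. Col4a4 stood at -2.55 and -2.47 in Control, at -2.31 and -2.18 at 24 h and at -2.67 and -2.84 at 48 h, so that the 24 h arrays lay above and the 48 h arrays below both Control arrays. Its differences from Control, 0.26 at 24 h (95% confidence interval -0.04 to 0.57) and -0.25 at 48 h (-0.55 to 0.06), were not called. Col4a6 stood at 3.81 and 3.56 in Control, at 3.53 and 3.93 at 24 h and at 3.79 and 4.57 at 48 h, with overlapping groups and a log2 fold change of 0.05 (-0.70 to 0.79) and 0.50 (-0.25 to 1.24). Col4a3 was not well above background on any array. The only probe of Col4a5 was flagged as an outlier on 5 of the 6 arrays and was left out. With the flagged spots kept, Col4a5 stood at 3.19 and 2.71 in Control, at 1.63 and 2.42 at 24 h and at 1.97 and 3.33 at 48 h.

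Col17a1 was called higher at both times. It was not well above background on either Control array, at -6.75 and -6.73, and was well above background on all 4 stimulated arrays, at -2.16 and -2.49 at 24 h and at -3.63 and -3.65 at 48 h. The gene was tested only because it was bright after stimulation. Col17a1 was at least 7.19-fold higher at 24 h and at least 2.89-fold higher at 48 h. The bound sets the stimulated mean against the lowest signal well above background on each Control array. The fitted log2 fold changes were 4.41 (adjusted p = 0.000946 in limma) and 3.10 (adjusted p = 0.00104). Both they and their p-values depend on the unmeasured Control signal. With normexp background correction the fitted log2 fold changes were 1.30 and 0.62, and both calls were kept.

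Col18a1, which encodes the precursor of endostatin, was well above background on every array. It stood at 1.08 and 1.20 in Control, at 2.63 and 2.32 at 24 h and at 3.27 and 3.06 at 48 h, so that the 3 groups did not overlap and the 48 h arrays were the highest. Col18a1 was 2.53-fold higher at 24 h (log2 fold change 1.34, SE 0.16, adjusted p = 0.00883) and 4.08-fold higher at 48 h (2.03, SE 0.16, adjusted p = 0.00291). The other Col18a1 probe gave 1.50 and 2.25. The related multiplexin gene Col15a1 was well above background on 1 array and was not tested.

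Col12a1, a fibril-associated collagen gene, was low at 48 h. It stood at -3.55 and -3.19 in Control, both well above background, and at -6.22 and -7.01 at 48 h, where neither array was. The 24 h arrays, at -4.34 and -3.33, overlapped the Control arrays, and 1 of the 2 was well above background. Col12a1 met the condition for testing only through its Control arrays, and its test at 48 h rests on a signal not measured above background. At 48 h Col12a1 was at least 2.85-fold lower than in Control, and its adjusted p in limma, 0.0113, belongs to the fitted difference. Its fitted log2 fold change was -3.25, and -0.69 with normexp background correction, and the call was lost without Control replicate 1 (adjusted p = 0.0597), Control replicate 2 (0.0696) or 48H CSF1 replicate 2 (0.0524). A further probe, described in the files as a type XII alpha 1 transcript but not under the gene's symbol, was not well above background on any array.

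None of the other fibril-associated genes was called. Col16a1 came closest, with levels of 1.31 and 1.89 in Control, 0.54 and 0.83 at 24 h and 1.04 and 1.19 at 48 h, all stimulated arrays being below both Control arrays. Its log2 fold change was -0.91 at 24 h (SE 0.23, adjusted p = 0.0561) and -0.48 at 48 h (adjusted p = 0.223). The 4 probes of Col16a1 were all below 0 at 24 h but ranged from -1.05 to -0.03. In a limma fit of single probes, the probe at -1.05 had an adjusted p of 0.0314. The settings that called Col16a1 lower at 24 h included median centring, both normexp settings, the filter asking for all 6 arrays and the intensity trend. Col14a1 differed by -0.33 and -0.49 at the 2 times, Col9a1 by 0.09 and -0.31, Col9a2 by 0.05 and 0.08 and Col20a1 by 0.14 and -0.28. The 2 probes of Col20a1 differed in sign at 48 h, from -0.28 to 1.12. Col9a3 and Col19a1 were not well above background on any array, and Col22a1 on 1. A further probe, described in the files as a type XXII alpha 1 transcript but not under the gene's symbol, was well above background on all 6 arrays and differed by -0.13 at 24 h (adjusted p = 0.707) and by 0.41 at 48 h (adjusted p = 0.238).

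No gene of type VI collagen, the beaded filament of the matrix around cells, was called. Col6a1 stood at 5.04 and 4.99 in Control, at 4.63 and 4.48 at 24 h and at 4.84 and 4.58 at 48 h. All 4 stimulated arrays were lower, with a log2 fold change of -0.46 at 24 h (95% confidence interval -0.81 to -0.11, adjusted p = 0.0868) and -0.30 at 48 h (-0.65 to 0.04). Col6a2 differed by -0.12 (-0.39 to 0.15) and -0.29 (-0.56 to -0.02, adjusted p = 0.145). Col6a6 was well above background on 3 arrays and Col6a4 on none, and neither was tested. The alpha 3 chain was not analysed under its symbol. A probe described in the files as a type VI alpha 3 transcript, outside the naming rule and well above background on all 6 arrays, differed by -0.07 and -0.16, with all 4 stimulated arrays inside the range of the Control arrays, 0.94 to 1.33. Another such probe, described as a type VI alpha 2 transcript, differed by 0.31 (adjusted p = 0.135) and 0.09 (adjusted p = 0.638).

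Of the remaining genes tested, Col7a1 of anchoring fibrils differed by -0.36 (95% confidence interval -0.96 to 0.23) and 0.17 (-0.42 to 0.76). Col8a1 of the short-chain network differed by -0.22 and by -0.80 at 48 h (-1.53 to -0.07, adjusted p = 0.136), and Col8a2 by 0.50 and 0.80 with overlapping groups. The transmembrane genes Col23a1, at 0.44 and 0.46, and Col25a1, at 0.34 and -0.47, overlapped Control at 24 h and were well above background on 4 arrays each. Of the 4 probes of Col25a1, the 2 that met the condition for testing differed in sign at 48 h. Col10a1, Col13a1 and Col28a1 were not well above background on any array. Over the 15 other collagen genes tested the median log2 fold change was 0.05 at 24 h and -0.29 at 48 h. The 24 h median of this mixed class changed sign with quantile normalization (-0.08), median centring (-0.23), normexp with the 75th percentile (-0.03), normexp with quantile normalization (-0.16), all 6 arrays well above background (-0.17) and without Control replicate 2 (-0.08). The 48 h median changed sign without the filter on dim probes (0.20) and with the mean of a gene's probes (0.08).

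**Figure D3:**
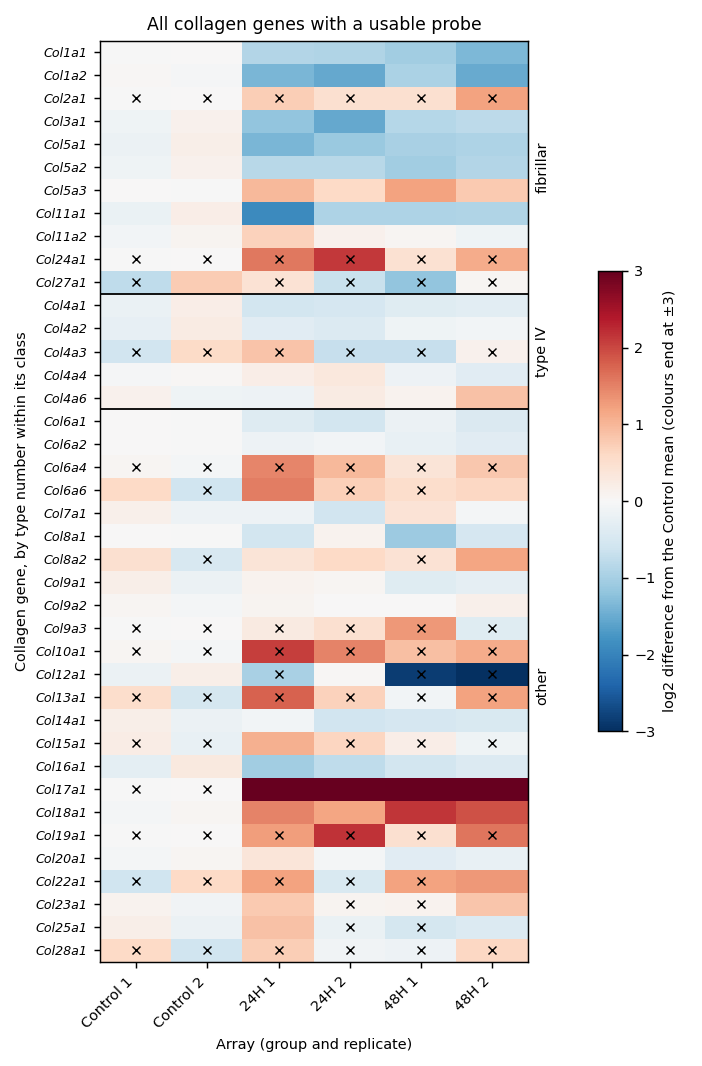
Difference of each array from the mean of the Control arrays (color, log2, ending at 3 in either direction) for the 40 collagen genes with a usable probe (rows, by class and type number) on the 6 arrays (columns). A cross marks a spot not well above background. The blue rows of Col1a1, Col1a2, Col3a1, Col5a1, Col5a2 and Col11a1 and the red rows of Col17a1 and Col18a1 carry no cross after stimulation, whereas most other deeply colored rows are crossed.

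How the collagens differ between the 2 times was addressed by comparing 48H CSF1 with 24H CSF1. limma called 0 of the 27 genes after adjustment, as it did 0% of all 24648 genes, and the methods' t-test also called 0. At an unadjusted p under 0.05 it gave 6 collagen genes, beside 13.6% of all genes tested. By the study's threshold 2 collagen genes were lower at 48 h, beside 1.40% of all genes, and 0 were higher, beside 0.868%. They were Col17a1, which was 2.49-fold lower (log2 fold change -1.31, SE 0.14, adjusted p = 0.104), and Col12a1 (fitted log2 fold change -2.78, adjusted p = 0.121), which was well above background on 1 of the 2 arrays at 24 h and on neither at 48 h. Col18a1 was higher by 0.69 at 48 h (95% confidence interval 0.30 to 1.08, adjusted p = 0.185), and Col3a1 by 0.53 (0.12 to 0.95, adjusted p = 0.272). With normexp background correction and the 75th percentile, Col18a1 was called higher and Col17a1 lower at 48 h.

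Genes that act on collagen were described from lists taken from general knowledge, and nothing in them is called particular to a list. The counts of each list stand beside the shares of all genes tested, 8.02% called higher and 5.99% lower at 24 h and 6.58% higher and 7.38% lower at 48 h. Among 21 genes of chain modification and folding, 19 were tested, and 2 rose and 4 fell at each time. The median log2 fold change was -0.13 at 24 h and -0.09 at 48 h. Plod2, a lysyl hydroxylase that prepares collagen for cross-linking, rose by 1.29 (SE 0.18, adjusted p = 0.0139) and 1.28 (adjusted p = 0.0151). Creb3l1, a transcription factor of collagen secretion, fell by 1.59 (SE 0.20, adjusted p = 0.0101) and by 1.12 (adjusted p = 0.0251) on the log2 scale. Plod3, another lysyl hydroxylase, rose by 0.92 and 0.67. All 4 stimulated arrays lay below both Control arrays for Creb3l1 and above them for Plod2 and Plod3.

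Among 13 genes of propeptide processing and cross-linking, 11 were tested. At 24 h 2 rose and 2 fell, and at 48 h 1 rose and 2 fell, beside the same shares of all genes, with median differences of -0.19 and 0.02. Lox, the lysyl oxidase that cross-links collagen and elastin, fell by 1.40 (SE 0.18, adjusted p = 0.0106) and by 1.34 (adjusted p = 0.0125), and the related Loxl1 fell by 1.21 (SE 0.11, adjusted p = 0.00549) and by 1.13 (adjusted p = 0.00590). Adamts14, a procollagen N-propeptidase, rose by 0.88 and 1.39.

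All 10 collagen receptor genes on the list were tested, of which 4 rose and 1 fell at 24 h and 3 rose and 1 fell at 48 h, beside 8.02% and 6.58% of all genes called higher, with medians of 0.22 and 0.13. The integrin genes Itga2 and Itga1, whose products pair with integrin beta 1 to bind collagen, were not well above background in Control and were above it on all stimulated arrays. They met the condition for testing only through the stimulated arrays, so their tests rest on a Control signal that was not measured above background. Itga2 was at least 2.81-fold higher at 24 h and at least 3.07-fold higher at 48 h, and Itga1 at least 2.48-fold and 2.11-fold higher. The adjusted p-values of Itga2 in limma, 0.00617 and 0.00484, belong to its fitted differences. Ddr2, a discoidin domain receptor for fibrillar collagen, fell by 0.92 and by 0.94. The other discoidin domain receptor gene, Ddr1, named after its values were seen, rose by 0.86 (adjusted p = 0.00934) and 0.95 (adjusted p = 0.00720), and was well above background on all 6 arrays.

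Only 3 of 8 collagen-degrading protease genes were tested, and 2 of them rose at both times, beside 8.02% and 6.58% of all genes. The collagenase gene Mmp13 had log2 fold changes of 3.52 (SE 0.67, adjusted p = 0.0304) and 5.12 (adjusted p = 0.0121), with 1 Control array well above background. Mmp13 met the condition for testing only through the stimulated arrays, so its tests rest partly on a Control signal not measured above background. Mmp1a was at least 5.15-fold and 5.75-fold higher, not being well above background in Control, and was tested only through the stimulated arrays. Of 11 genes of the TGF-beta axis, 1 rose and 2 fell at each time, beside 5.99% of all genes called lower at 24 h and 7.38% at 48 h. Tgfb1, the ligand best known for inducing fibrillar collagen, rose by 1.53 (SE 0.14, adjusted p = 0.00470) and 1.73 (adjusted p = 0.00314), and Tgfb2 fell by 1.76 and by 1.84. The other gene called lower, named after its values were seen, was the receptor gene Tgfbr2 at 24 h (log2 fold change -0.62, adjusted p = 0.0263; -0.45 at 48 h, adjusted p = 0.0580) and the TGF-beta target Ccn2 at 48 h (-2.10, adjusted p = 0.0482; -1.81 at 24 h, adjusted p = 0.0675). The medians of this list were -0.10 and 0.14.

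**Figure D4:**
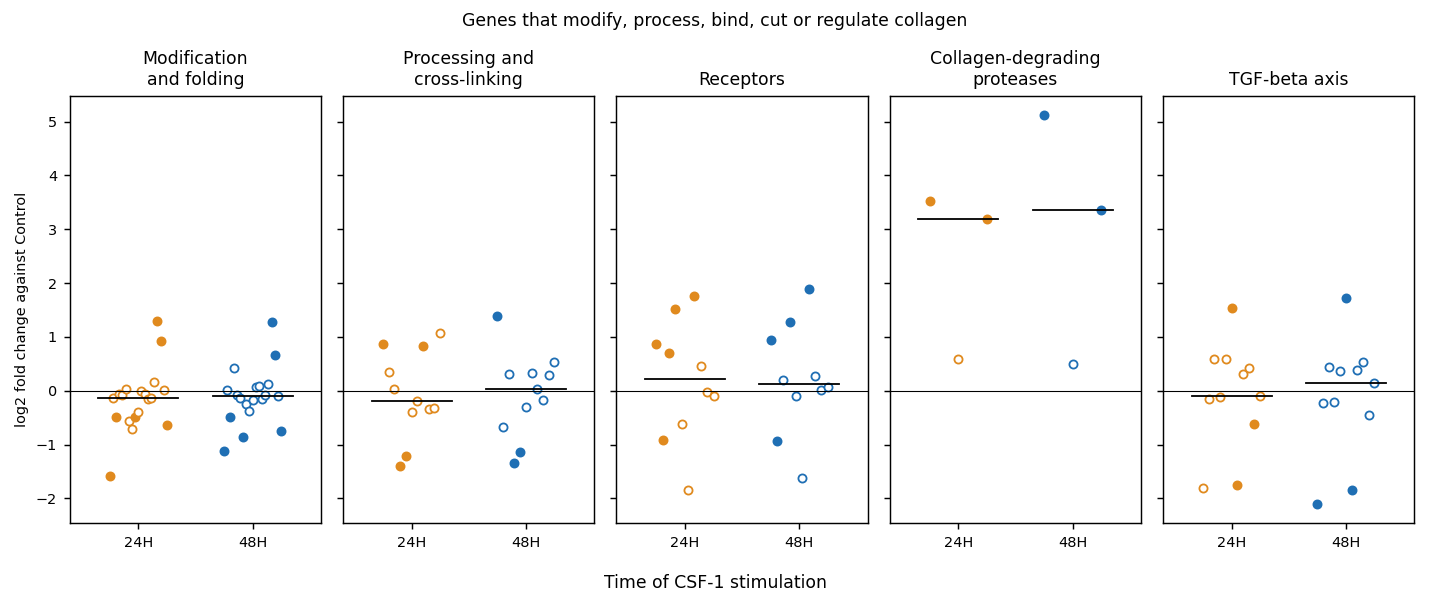
Log2 fold change against Control (vertical axis) of the tested genes of 5 lists (panels) at 24 h and 48 h (horizontal axis); each circle is 1 gene, filled where the adjusted p was under 0.05, and black bars are list medians, which lie between -0.19 and 0.22 except among the proteases, with 3 genes tested.

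Most tested markers of smooth muscle fell along with the fibrillar genes, while fibroblast markers went both ways. Of 5 smooth muscle genes 4 were tested, and 3 fell and 0 rose at each time, beside 5.99% and 7.38% of all genes called lower. These were Acta2, Cnn1 and Tagln, of which Acta2 fell by 2.26 and fell by 3.48 on the log2 scale, while Myh11, a defining gene of mature smooth muscle, was not well above background on any array. Des, the remaining gene tested, differed by 0.71 at 24 h (adjusted p = 0.0710 in limma) and by 0.16 at 48 h (adjusted p = 0.646), and was not called. The summed level of the 5 was 27.0 to 38.5 in Control, 8.19 to 13.4 at 24 h and 5.03 to 6.56 at 48 h. Nearly all of it was the signal of Acta2 and Tagln.

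Of 8 fibroblast genes 6 were tested. At 24 h 2 were higher and 2 lower, beside 8.02% of all genes called higher and 5.99% lower. At 48 h 1 was higher and 2 lower, beside 6.58% of all genes called higher and 7.38% lower. The medians were 0.23 and 0.08. Pdgfrb and Dpt fell at both times, Dcn rose by 2.08 and 2.78, and Pdgfra rose at 24 h (1.33, adjusted p = 0.0178), while Fap and Lum were not well above background on any array. The summed level of the 8 was 319.7 to 333.5 in Control, 282.8 to 297.8 at 24 h and 252.1 to 288.9 at 48 h, nearly all of it the signal of Vim, which was not called (log2 fold change -0.16, adjusted p = 0.423, and -0.27, adjusted p = 0.198). The part of smooth muscle and fibroblast markers in the fibrillar result was not tested.

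The summed level of 8 macrophage genes was 39.9 to 44.5 in Control, 30.1 to 37.7 at 24 h and 24.7 to 34.0 at 48 h, most of it the signal of Itgam, which was not called (-0.43, adjusted p = 0.264, and -0.65, adjusted p = 0.1195). Of the 5 macrophage genes tested, Cd14 rose at both times (0.87, adjusted p = 0.0101, and 0.69, adjusted p = 0.0191), and Lyz2 was not well above background on any array. The sums of 4 endothelial genes were 18.7 to 25.4, 20.5 to 23.9 and 18.7 to 21.5, most of it the signal of Kdr, which was not called. Of these 4, Cdh5, which encodes VE-cadherin, rose, with log2 fold changes of 3.87 (adjusted p = 0.00308) and 3.97 (adjusted p = 0.00234) and 1 Control array well above background. Cdh5 met the condition for testing only through the stimulated arrays, so its tests rest partly on a Control signal not measured above background.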

How the data were processed

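RNA of 6 cultures was hybridized to 1 single-color Agilent array each. The authors deposited scanner output from Feature Extraction 11.0.1.1. Its processed signal, a background-subtracted linear intensity not normalized between arrays, was used with the mean and local background intensities and the flags. Log2 values that the authors deposited for 44323 probes followed this signal, with 99.8% of differences between arrays within 0.05 once a constant for each array was taken off. Its baseline for each probe is unknown, so it served as an alternative. The study's methods give 12 and 24 h of stimulation, whereas the labels and results give 24 h and 48 h, which were used.

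Outlier-flagged spots were left out, spots of a probe averaged, and log2 values set against the array's 75th percentile over non-control spots. Of 36163 genes, 135 had no usable probe. The brightest probe stood for a gene. Tests covered the 24648 genes for which both arrays of some group were well above background, and used the 2-sided moderated test of limma 3.58.1 (lmFit, then eBayes) in R 4.3.3, with all 6 arrays in 1 fit, 3 residual and 2.39 prior degrees of freedom; the files were read with the package data.table, version 1.17.8. A gene was called at an adjusted p under 0.05 (Benjamini-Hochberg, over every gene tested). The fit was first tested on simulated data.

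Alternatives were quantile normalization, median centring, normexp (offset 50) with either scaling, the authors' log2 values, filters, the mean of probes, kept outliers, an intensity trend, 2 groups only, a replicate block, the methods' t-test and leaving out each array. Every collagen tested is named, with values on each array for those called by either rule and for types I, III, IV and V. Of each of 5 pathway lists, at most 3 genes called at both times, those with the largest mean change, are named. The members and lists, including 5 marker lists, were chosen with earlier results of these data known. A marker gene of 1 list is not reported here. Positions are those of the files (mm9), and promoter windows are those of RefSeq (GRCm38.p6).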

Additional observations from a re-analysis of the deposited data

Results flagged for a closer look

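Col4a4, a type IV chain, was picked out because its stimulated arrays lay on opposite sides of Control at the 2 times. Both 24 h arrays (-2.31 and -2.18) were above both Control arrays (-2.55 and -2.47), and both 48 h arrays (-2.67 and -2.84) were below them. The difference between the times was -0.51 on the log2 scale (95% confidence interval -0.82 to -0.20). In limma its unadjusted p was 0.00728 and its adjusted p 0.198, so it was not called, and 13.6% of all genes tested had an unadjusted p under 0.05 in that comparison. The other Col4a4 probe that met the condition for testing gave -0.21. The cause was not tested.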

How the results depend on the processing

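The called collagen genes kept their direction under every alternative that gave a value. At 24 h the 5 lower calls became 9 with median centring, normexp with the 75th percentile or an intensity trend, and 3 without the filter on dim probes. At 48 h the 6 lower calls became 2 without that filter and 3 by the unadjusted p and 2-fold rule. After adjustment the methods' t-test called 0 collagen genes, higher or lower, and 0 of all genes in any comparison; at the methods' own threshold it gave 2 higher and 3 lower at 24 h and 2 higher and 3 lower at 48 h. Leaving out 1 array of a compared group lowered the number of calls against Control over all genes too. Those fits are therefore given as class medians in the next paragraph. Between the times, with 0 calls, normexp with the 75th percentile gave 1 higher (Col18a1) and 1 lower (Col17a1), normexp with quantile normalization 1 higher, and the unadjusted rule 2 lower. Over all genes, higher and lower calls at 24 h were 1977 and 1477, and 1197 and 3706 with median centring.

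The fibrillar median was -1.35 with median centring and -0.84 without the filter at 24 h, and 0.39 with median centring between the times. The type IV median at 24 h was -0.45 with median centring, 0.046 without the filter and -0.38 with outlier-flagged spots kept; at 48 h it was 0.033 with Col7a1, Col15a1 and Col18a1 counted with type IV; between the times it was 0.41 with median centring and -0.00040 with the mean of probes. The median of the other collagens at 24 h was -0.075 with quantile normalization, -0.23 with median centring, -0.16 with normexp and quantile normalization, 0.36 without the filter and -0.17 with all arrays well above background. At 48 h it was -0.15 with normexp and the 75th percentile, 0.20 without the filter and 0.079 with the mean of probes; between the times it was 0.027 with median centring, 0.019 with normexp and quantile normalization and -0.28 without the filter. Leaving out 1 array, the fibrillar median ran from -1.19 to -0.91 at 24 h, from -1.09 to -0.75 at 48 h and from -0.016 to 0.34 between the times, the type IV median from -0.25 to -0.08, from -0.32 to -0.0014 and from 0.11 to 0.25, and that of the others from -0.084 to 0.093, from -0.29 to -0.21 and from -0.24 to 0.070. The causes were not tested.

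Arrays with the same replicate number did not deviate together throughout: their differences correlated at 0.128, 0.0941 and 0.199, so the numbers were not taken to pair the arrays. With the replicate number as a block, 3 higher and 7 lower collagen genes were called at 24 h and 3 higher and 5 lower at 48 h, where Col3a1 was not called. Signal over background limits Col17a1 in Control and Col12a1 at 48 h to bounds, and leaves 13 collagen genes with a usable probe untested.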
